A study of Mus musculus with 6 samples.

Results

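Chaperones of the endoplasmic reticulum (ER) and the factors that send misfolded proteins from the ER to degradation were examined in immortalized mouse proximal tubular cells with and without a knockdown of Glis2. The genes were taken from a list of 38 symbols by the gene symbol of their array probes, older symbols included. The symbols name 37 genes, because Selenos and Vimp are the same gene, and 36 of them had a probe, out of 19057 genes measured. Dnajb11 was not measured here. Where a gene had several probes, the brightest over the 6 arrays was used.

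The cells, from the C56BL/6 strain background as the labels spell it, received lentiviral short hairpin RNA and were harvested on day 7 after infection. The control group carried an anti-GFP hairpin (n = 3 arrays) and the knockdown group an anti-Glis2 hairpin (n = 3), so both groups share the immortalization, the infection and a hairpin. The design asks which transcripts differ when Glis2, a zinc finger transcription factor whose loss leads to cystic and fibrotic kidney disease, is lowered. Nothing in the labels says whether the arrays of a group came from separate cultures, so the p-values reflect the spread of these 6 samples alone, and that spread may be technical. In such bulk RNA, fewer cells of a type and less RNA per cell cannot be told apart.

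Secreted and membrane proteins fold in the ER with the help of chaperones, lectins and enzymes that form disulfide bonds. When unfolded proteins build up, 3 membrane sensors, encoded by Ern1, Atf6 and Eif2ak3, start the unfolded protein response, which raises chaperone and degradation genes and slows translation. Proteins that fail to fold are moved back to the cytosol, marked with ubiquitin and destroyed by the proteasome, a route called ER-associated degradation. Proximal tubule cells carry a large load of membrane transporters and endocytic receptors, which are made through this pathway.

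The arrays held linear probe intensities that include background. Probes with an average above 137 across the arrays were counted as above background, and 40.8% of the probes on each array read higher than this limit. Intensities correlated over all probes at r = 0.995 within groups and at 0.980 to 0.982 across groups. Glis2 went from 247 ± 26.4 in control to 169 ± 7.39 in knockdown cells (SD, n = 3 each), a log2 fold change of -0.55 ± 0.092 (SE; limma's adjusted p = 6.32e-05), and -1.26 with background subtracted (adjusted p = 0.0200). Among 12 measured markers of the proximal tubule, Aqp1, Mme and Dab2 were above background, whereas the defining markers Lrp2, Cubn and Slc34a1 were not. The summed intensity of the 12 was 14284 to 16098 on the control arrays and 3870 to 4177 on the knockdown arrays, and the part of this shift in the results below was not tested. Most of it was Aqp1, a water channel, which went from 9760 ± 706 to 365 ± 101 (SD, n = 3). Mme went from 855 ± 146 to 118 ± 5.08, under the background limit, and Dab2 from 3310 ± 116 to 2398 ± 48.7. The other 9 were neither above background nor called, and the median log2 fold change of the 12 was 0.01. Of the markers of other cell types, 3 of 11 for distal segments, 2 of 3 for podocytes, 1 of 7 for fibroblasts, 0 of 5 for endothelium and 1 of 4 for leukocytes were above background. Their summed intensities were 2451 to 2591 in control and 2347 to 2493 in knockdown arrays for distal segments, and 1207 to 1321 and 1577 to 1642 for podocytes. For fibroblasts they were 972 to 995 and 827 to 891, for endothelium 569 to 619 and 612 to 645, and for leukocytes 530 to 549 and 538 to 634. These sums include the background of every probe. Among the fibroblast markers Dcn went from 275 ± 30.3 to 139 ± 17.7 (SD, n = 3) and was called lower. Col1a2, not above background, was called higher at a log2 fold change of 0.26 (limma's adjusted p = 0.0349). Podxl and Synpo of the podocyte markers and Csf1r of the leukocyte markers were called higher.

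The ER genes changed in both directions. In the knockdown 8 of the 36 were lower (Herpud1, Dnajb9, Pdia3, Dnajc3, Ern1, Hsp90b1, Ero1b and Ppp1r15b) and 4 were higher (Selenos, Creld2, Wfs1 and Derl2), at limma's adjusted p under 0.05 over all genes. Over all 19057 genes 11.4% were called lower and 11.2% higher. The 12 called ER genes were all above background, as were 29 of the 36, and among the 9642 genes above background 21.9% were called lower and 21.3% higher. In total 41.4% of the ER genes above background were called, next to 43.2% of all genes above background (33.3% of the 36 and 22.5% of all genes, without that limit), so the share called was near that of other measured genes. The median log2 fold change was -0.04 over the 36 ER genes and 0.00 over all genes (0.0040), with a range from -0.89 to 1.08 in the ER genes.

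**Figure D1:**
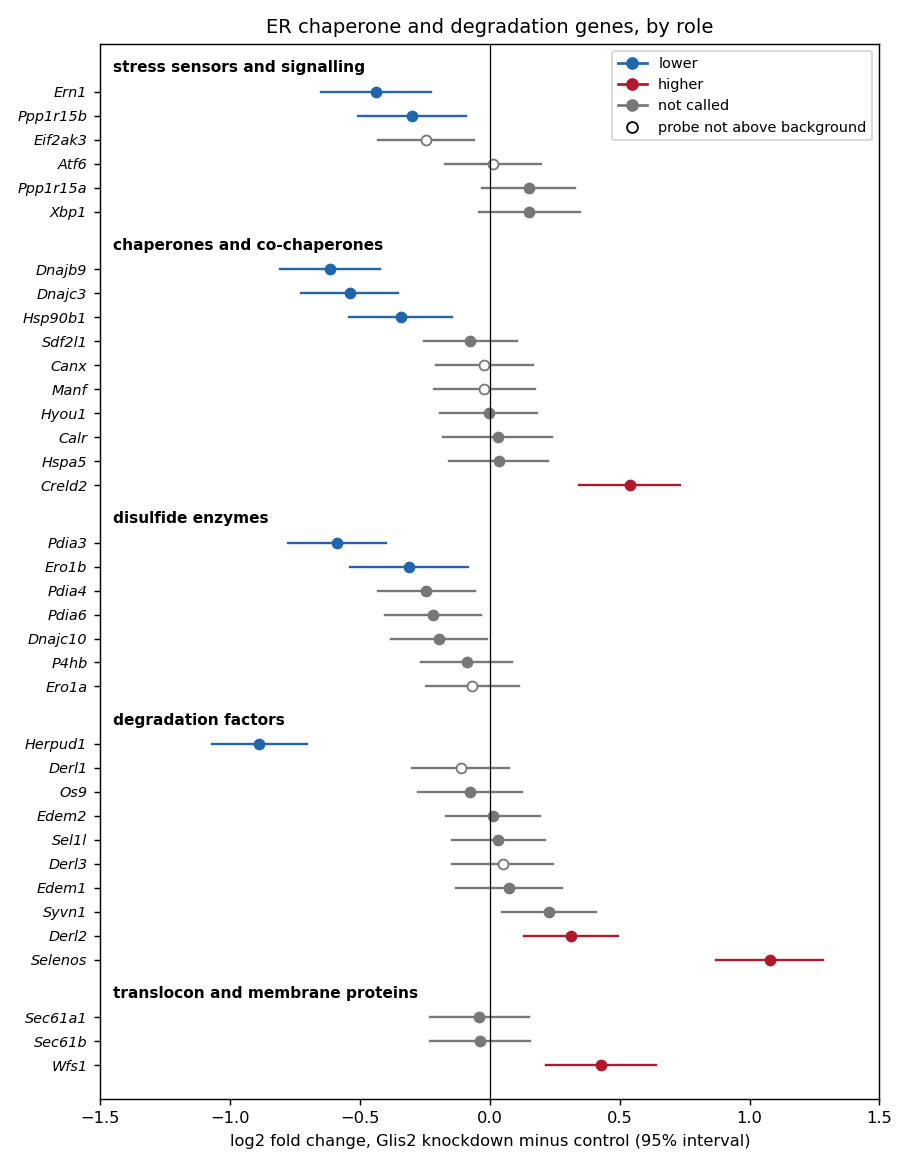
Log2 fold change (knockdown minus control, horizontal axis) of each of the 36 ER genes with its 95% interval from limma, grouped by role. Blue genes were called lower, red genes higher and grey genes were not called, and open circles mark probes not above background. Herpud1 at -0.89 and Selenos at 1.08 lie at the ends, and Hspa5 lies at 0.03.

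Many chaperone genes carry a DNA element in their promoters, the ER stress response element (ERSE), which the ATF6 and XBP1 transcription factors bind together with NF-Y. Its letters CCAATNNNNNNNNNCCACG were searched on both strands in RefSeq promoters of build GRCm38.p6, each with 250 bases before and 50 after a gene's start. A match was found in 39 of 32851 promoters (0.119%) and in those of 10 of the 30 ER genes with a promoter in that table: Calr, Canx, Creld2, Derl3, Dnajc3, Ero1b, Hsp90b1, Hspa5, Pdia6 and Syvn1. Among these 10, 3 were lower (Dnajc3, Ero1b and Hsp90b1), 1 was higher (Creld2) and the log2 fold changes ran from -0.54 to 0.54. For comparison, 22.5% of all genes and 43.2% of those above background were called, the latter 21.9% lower and 21.3% higher. Outside the ER list, 12 measured genes had the element, of which 1 was lower and 2 were higher. Of all 22 measured genes with the element, listed or not, 10 were above background. Most of the 12 were therefore not above background, and their calls carry little weight. Promoters that share these letters therefore belonged to genes that were lower, higher or not called. Of the ER genes with a match, Canx and Derl3 were not above background, and Creld2 was not called relative to its neighbouring genes. Ero1b lost its call in 9 of 20 alternatives. The stretches below show 1 uncalled gene, 3 lower genes and the higher one, with the fixed letters of the element in capitals, read 5′ to 3′ on the gene's strand. They lie at chr2:34772015-34772053 (plus strand) for Hspa5, chr14:118937817-118937855 (plus) for Dnajc3, chr13:12565672-12565710 (plus) for Ero1b, chr10:86705523-86705561 and chr10:86705628-86705666 (minus) for the 2 matches of Hsp90b1 and chr15:88819510-88819548 (plus) for Creld2. In Hspa5, Dnajc3 and the second match of Hsp90b1 the element reads forward. In Ero1b, Creld2 and the first match of Hsp90b1 it reads on the opposite strand, so that the capitals show CGTGG and ATTGG.
Hspa5: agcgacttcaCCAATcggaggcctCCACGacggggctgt
Dnajc3: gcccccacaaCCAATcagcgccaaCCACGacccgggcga
Ero1b: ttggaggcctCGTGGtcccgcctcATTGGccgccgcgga
Hsp90b1, first match: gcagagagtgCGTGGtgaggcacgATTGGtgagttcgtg
Hsp90b1, second match: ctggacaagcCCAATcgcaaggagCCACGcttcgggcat
Creld2: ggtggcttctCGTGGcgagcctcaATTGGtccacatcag

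Of the ER genes, Herpud1 had a match to a shorter form of this element, ERSE-II (ATTGG, any 1 base, then CCACG, in 12 of 32851 promoters, 0.0365%). Its promoter also held TTGCATCA, the core of the element bound by ATF4 with C/EBP proteins, which occurred in 294 promoters (0.895%) and in no other ER gene's promoter. Of the 139 measured genes with this core 13 were lower and 13 higher, with a median log2 fold change of -0.01. Only 61 of the 139 were above background, so this median says little about changes. Of the 8 with ERSE-II, 7 of them above background, 1 was lower and 1 higher. Herpud1 is included in both sets. Over all genes 11.4% were called lower and 11.2% higher, and among those above background 21.9% and 21.3%. The core TGACGTGG of a further XBP1 element was in 222 promoters (0.676%) and in 0 of the 30. No motif overlapped another in the stretch of 91 bases at chr8:94386307-94386397 (plus strand), where the ATF4 core begins 112 bases and ERSE-II begins 52 bases before the start of the gene. Both are in capitals.
Herpud1: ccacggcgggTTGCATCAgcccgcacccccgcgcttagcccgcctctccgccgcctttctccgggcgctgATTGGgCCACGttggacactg

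Among the sensors and their signalling partners 2 of 6 genes were lower and 0 higher by limma, also with 0 higher at an unadjusted p under 0.05. Of the 4 above background 50% were called, near the 43.2% of all genes above background (21.9% lower and 21.3% higher). So few genes give little weight to the single direction. Ern1 encodes IRE1, the kinase and ribonuclease that splices Xbp1 messenger RNA. Its intensity was 495, 467 and 365 on the control arrays and 311, 317 and 343 on the knockdown arrays, so the groups did not overlap, with control array 3 close to the knockdown arrays. The log2 fold change was -0.44 ± 0.10 (SE; limma's adjusted p = 0.00203). A second probe of Ern1, whose mean of 129.7 was not above background, gave 0.29. With the second brightest probe of each gene, Ern1 was thus called higher (limma's adjusted p = 0.0230). The mean of its 3 probes gave -0.05. With background subtracted the adjusted p by limma was 0.122. Xbp1, the substrate of IRE1 and the transcription factor of that arm, had 3752, 3191 and 3075 in control and 3811, 3434 and 3866 in knockdown cells. These ranges overlapped and the log2 fold change was 0.15, with a 95% interval from -0.04 to 0.35. Relative to its neighbouring genes Xbp1 was at 0.26 and was called higher (limma's adjusted p = 0.0436). Where the probe lies relative to the spliced segment was not determined here, so spliced and unspliced Xbp1 were not told apart.

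The other sensors were near the limit of the array. Eif2ak3 encodes PERK, the kinase that slows translation by phosphorylating the initiation factor eIF2. It read 150.00, 144 and 138 in control and 128, 111 and 125 in knockdown cells, with all knockdown arrays under the background limit and no overlap. Its log2 fold change of -0.24 had limma's adjusted p = 0.0513 and was not called. In 3 of 20 alternatives it was called lower by limma. These were without knockdown replicate 1 (adjusted p = 0.0457), with background subtracted (0.0327) and with another background correction (0.0377). Under the limit the array gives no size for the difference. Atf6, the membrane-bound transcription factor of the third arm, read 127, 137 and 125 in control and 142, 128 and 123 in knockdown cells, which overlapped at a level not above background. Ppp1r15b and Ppp1r15a are adaptors of the phosphatase that reverses PERK's mark. Ppp1r15b, the constitutive adaptor, read 202, 224 and 249.5 in control and 199, 191 and 159.9 in knockdown cells, with the highest knockdown array just under the lowest control array. Its log2 fold change was -0.30 ± 0.100 (SE; limma's adjusted p = 0.0317). The call was lost without control replicate 2 (0.0709), without control replicate 3 (0.177) and without knockdown replicate 3 (0.220), and also with the replicate number as a block (0.0582) and with background subtracted (0.293). Ppp1r15a, the adaptor induced by stress, went from 427 ± 10.9 to 474 ± 32.2 (SD, n = 3) and was not called, with a log2 fold change of 0.15 (95% interval -0.03 to 0.33).

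Of 10 measured chaperones and co-chaperones, 3 were lower, 1 was higher and 6 were not called. Among the 8 above background 50% were called, near the 43.2% of all genes above background. The lower ones included 2 J-domain partners of the main ER chaperone BiP. Dnajb9, also called ERdj4, read 605, 594 and 624 in control and 421, 348 and 426 in knockdown cells. All control arrays lay above all knockdown arrays by a wide gap, and the log2 fold change was -0.62 ± 0.093 (SE; limma's adjusted p = 1.51e-05). Dnajc3, also called P58IPK, read 499, 503 and 472 against 329, 315 and 373, again without overlap. It fell by 0.54 on the log2 scale (SE 0.090; limma's adjusted p = 5.28e-05), and its second probe was not above background. With background subtracted both genes were still lower, at -0.81 and -0.75, with limma's adjusted p of 0.0264 and 0.0197.

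Hsp90b1, the ER member of the HSP90 family known as GRP94, read 11182, 12559.9 and 9757 in control and 8730.2, 8404 and 9162 in knockdown cells. The groups did not overlap, and the log2 fold change was -0.34 ± 0.096 (SE; limma's adjusted p = 0.00946). The 50 nearest genes above background on chromosome 10 had a median of 0.30 in the opposite direction, and relative to them Hsp90b1 was at -0.65. Without control replicate 2, the highest array, the adjusted p by limma was 0.0860, and with background subtracted it was 0.134. BiP itself, encoded by Hspa5, read 255, 298 and 297 in control and 267, 308 and 294 in knockdown cells. The groups overlapped, and the log2 fold change of 0.03 had a 95% interval from -0.16 to 0.23. Hspa5 rests on 1 probe with a mean of 286, background included, so a change in it may be understated. With background subtracted its value was 0.06.

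The chaperone gene that rose was Creld2, which encodes a cysteine-rich protein of the ER induced by ER stress. It read 1539.8, 1499 and 1379 in control and 2281, 2260.3 and 1891 in knockdown cells, with every knockdown array above every control array. The log2 fold change was 0.54 ± 0.093 (SE; limma's adjusted p = 9.01e-05), and a second probe gave 0.40. Neighbouring genes on chromosome 15 had a median of 0.35, and relative to its neighbours Creld2 was at 0.11 and was not called (limma's adjusted p = 0.409). Calr, a lectin chaperone that holds glycoproteins, Hyou1, a nucleotide exchange factor for BiP, and Sdf2l1, a partner of ER J-domain proteins, were not called. Their log2 fold changes were 0.03, 0.00 (-0.0033) and -0.08, and the 95% intervals of all 3 ran from -0.25 to 0.24. The probes for the lectin chaperone Canx and for Manf, a secreted protein of the ER that binds BiP, were not above background, so the array gives no comparison for them.

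**Figure D2:**
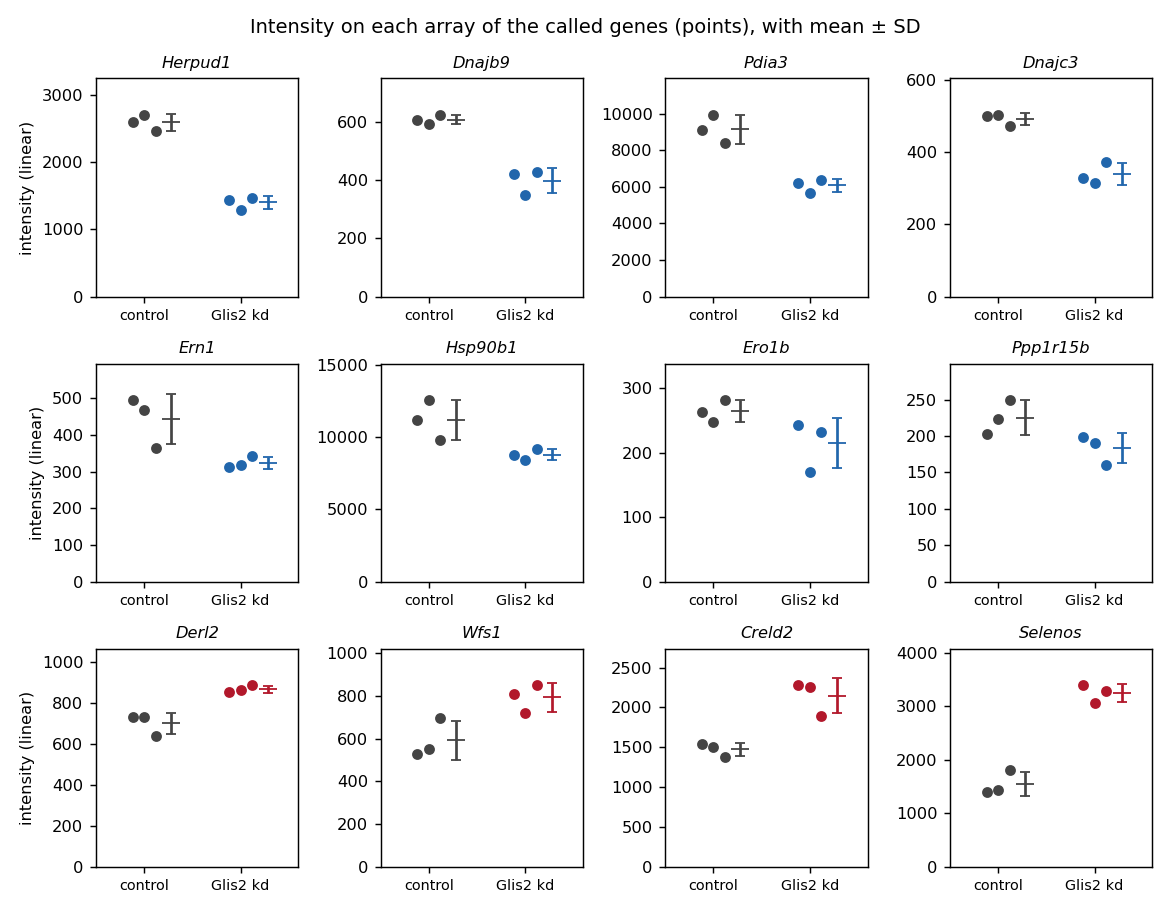
Linear intensity (vertical axis, from 0) on each of the 3 control and 3 knockdown arrays for the 12 called ER genes, with the mean ± SD beside the points. The groups are separate in every panel, widely for Herpud1 and Selenos and narrowly for Ppp1r15b, where 199 in the knockdown meets 202 in control.

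All 7 measured disulfide enzymes had a log2 fold change below 0, with a median of -0.22 and a range from -0.59 to -0.07, and 2 of them passed the test by limma, against 5 at an unadjusted p under 0.05. Over all genes 49% had a value below 0 and 14.7% were lower at an unadjusted p under 0.05, and among genes above background these shares were 50.7% and 27.2%. In 5 of the 7 every knockdown array lay under every control array, which was the case for 16.1% of all genes and 26.5% of those above background. Relative to their neighbouring genes the median was -0.10, and Ero1a was at 0.01. The probe of Ero1a was not above background, so its sign carries little weight. For Dnajc10 the third probe in brightness, above background with a mean of 139.8, gave 0.09. Pdia3, known as ERp57, forms disulfide bonds in glycoproteins held by calnexin and calreticulin. Its probe read 9123, 9951 and 8389 in control and 6221, 5671 and 6354 in knockdown cells. The drop was far larger than the spread within groups, at -0.59 ± 0.091 on the log2 scale (SE; limma's adjusted p = 2.14e-05). Relative to its neighbours, which had a median of -0.18, Pdia3 was at -0.34 (limma's adjusted p = 0.00593). Ero1b, an oxidase that recharges the isomerases, read 263, 248 and 282 against 243, 170.4 and 232. Knockdown array 2 was well under the other 2, and the log2 fold change was -0.31 ± 0.11 (SE; limma's adjusted p = 0.0423). Without knockdown replicate 2 the adjusted p by limma was 0.376, without control replicate 1 it was 0.0957, without control replicate 3 it was 0.163, and it was 0.443 with background subtracted.

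Pdia4 and Pdia6, both isomerases with thioredoxin domains, and Dnajc10, a reductase that prepares proteins for degradation, had values of -0.24, -0.22 and -0.20 and did not pass, with limma's adjusted p of 0.0555, 0.0893 and 0.138. Pdia4 was called lower in 7 of 20 alternatives, among them relative to its neighbours (-0.32, limma's adjusted p = 0.00967), without control replicate 2 (0.0476) and without knockdown replicate 1 (0.0263). For all 3 genes the knockdown arrays lay under the control arrays. Pdia4 went from 2266 ± 137 to 1915 ± 152, Pdia6 from 315 ± 23.9 to 271 ± 13.1 and Dnajc10 from 3640 ± 143 to 3183 ± 266 (SD, n = 3). P4hb, the classical protein disulfide isomerase, had overlapping groups, with 11534 ± 406 in control and 10842 ± 293 in knockdown cells and a log2 fold change of -0.09 (95% interval -0.26 to 0.09). Both probes of Ero1a, the other oxidase, were not above background.

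The degradation factors held both the lowest and the highest log2 fold change of the 36 genes. Herpud1 encodes an ER membrane protein with a ubiquitin-like domain that works with the HRD1 ubiquitin ligase. It read 2604, 2704 and 2461 in control and 1442, 1294 and 1467 in knockdown cells, so that every control array was far above every knockdown array. This was a 1.85-fold lower mean, with a log2 fold change of -0.89 ± 0.088 (SE; limma's adjusted p = 3.23e-08). A second probe gave -0.94, from 2071 ± 105 to 1080 ± 116 (SD, n = 3). Over all 20 alternatives Herpud1 stayed lower, from -0.95 to -0.75.

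Selenos, a selenoprotein of the ER membrane that recruits the VCP ATPase to pull proteins out of the ER, read 1393, 1443 and 1811 in control and 3397, 3064 and 3287 in knockdown cells. Every knockdown array was well above the controls, the mean was 2.10-fold higher, and the log2 fold change was 1.08 ± 0.099 (SE; limma's adjusted p = 8.74e-09). The second probe of Selenos gave 0.81, from 1316 ± 169 to 2304 ± 138 (SD, n = 3). Nearby genes on chromosome 7 had a median of 0.26, and relative to them it was at 0.76. Derl2, a derlin of the channel through which proteins leave the ER, read 729, 731 and 640.03 in control and 854, 862 and 887 in knockdown cells without overlap. It rose by 0.31 ± 0.088 on the log2 scale (SE; limma's adjusted p = 0.0101), and by 0.38 on a second probe. Without control replicate 3, its lowest array, the adjusted p by limma was 0.0660.

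The core of the HRD1 ligase differed less. Syvn1, the ligase HRD1 itself, had knockdown arrays above all control arrays, at 4538 ± 61.1 against 3881 ± 309 (SD, n = 3). Its log2 fold change of 0.23 was not called (limma's adjusted p = 0.0673), and nearby genes on chromosome 19 had a median of 0.32, relative to which it was at -0.14. Syvn1 was called higher in 3 of 20 alternatives, 1 of them without control replicate 1 (limma's adjusted p = 0.0333). The adaptor Sel1l, the lectin Os9 and the mannosidase-like Edem1 and Edem2, which mark misfolded glycoproteins, were not called, with log2 fold changes of 0.03, -0.08, 0.07 and 0.01 and overlapping groups. Across these 4 the 95% intervals ran from -0.27 to 0.28. Of the 4 probes of Edem2, the third in brightness, with a mean of 286, gave 0.28. Derl1 and Derl3 had no probe above background.

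Sec61a1 and Sec61b encode subunits of the channel that takes new proteins into the ER. Their log2 fold changes were both -0.04, with 95% intervals from -0.23 to 0.15 and from -0.23 to 0.16, and their groups overlapped. Wfs1, wolframin, an ER membrane protein mutated in Wolfram syndrome, read 527, 553 and 697 in control and 807, 721 and 851 in knockdown cells, with control array 3 close to knockdown array 2. It rose by 0.43 ± 0.10 on the log2 scale (SE; limma's adjusted p = 0.00273), which became an adjusted p of 0.146 with background subtracted.

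Some genes were measured by more than 1 probe, on RNA of the same 6 samples, so their probes are not independent samples. Of the 36 ER genes 21 had several probes, and 11 had more than 1 above background. In 8 of these 11 all probes above background gave a change of the same sign. The 5 called genes in this set, Herpud1, Dnajb9, Selenos, Creld2 and Derl2, were all among the 8. For Dnajb9 the second probe gave -0.31 against -0.62 for the brighter one. Pdia3, Hsp90b1 and Wfs1 rest on 1 probe each, and Ern1, Dnajc3, Ero1b and Ppp1r15b on 1 probe above background. The second brightest probes of Ern1 and Dnajc3, not above background, had the opposite sign, at 0.29 and 0.03. Those of Ero1b and Ppp1r15b, also not above background, gave -0.07 and -0.10.

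**Figure D3:**
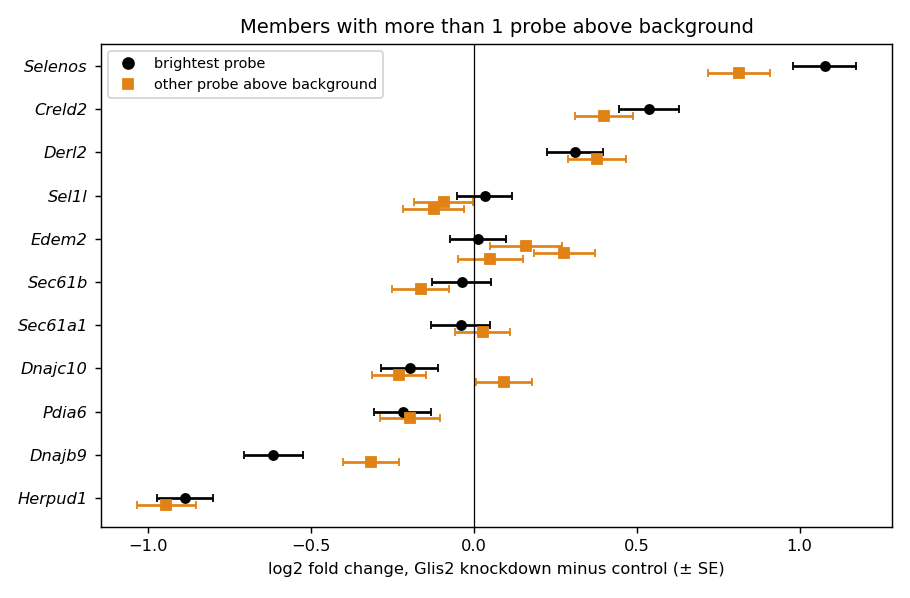
Log2 fold change (knockdown minus control, ± SE) of every probe above background for the 11 ER genes with more than 1 such probe. Black circles are the brightest probe and orange squares the others, and both probes of Herpud1 (-0.89 and -0.94) and of Selenos (1.08 and 0.81) lie far from 0.

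Other genes of the pathway were taken from 6 lists. Among transcription factors and enzymes of unfolded protein signalling, 4 of 12 were lower and 2 higher. Of those above background 66.7% were called, against 43.2% of all genes above background. Atf4, translated when eIF2 is phosphorylated, went from 12552 ± 1069 to 9717 ± 635, and Ddit3, the factor CHOP that it induces, from 790.04 ± 71.7 to 653 ± 74.4 (SD, n = 3). They fell by 0.37 and 0.28 on the log2 scale (limma's adjusted p = 0.00376 and 0.0446), and with background subtracted neither was called (0.0680 and 0.280). Creb3, a membrane-bound relative of ATF6, rose by 0.78 and Rtcb, the ligase that joins spliced Xbp1, by 0.43, the latter with neighbours at 0.28 on chromosome 10 and not called with background subtracted or relative to those neighbours (limma's adjusted p = 0.263 and 0.292). On its second probe Creb3 gave -0.0076. Of 14 ATF4 targets, 9 were lower and 0 higher by limma, which was 69.2% of those above background. The median of the 14 was -0.74, and 0 were higher at an unadjusted p under 0.05. Over the 20 alternatives 7 to 9 were lower and 0 higher, and with the mean of all probes the median was -0.41. The transcription factor Cebpb, the glutathione-degrading enzyme Chac1 and the stress protein Nupr1 had -1.81, -1.42 and -1.40. This list was chosen with earlier results of these samples known and is not independent evidence of its direction.

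In the other lists, genes were called in both directions. Among genes above background the shares called were 50%, 46.7%, 26.9% and 41.7%, in the order below, against 43.2% over all genes. Of 13 other disulfide isomerases 4 were lower and 1 higher, with Pdia5 and the membrane isomerase Tmx4 at -0.44 and -0.45 and Txndc5 at 0.48. Of 19 genes of N-glycosylation and glycan trimming 4 were lower and 3 higher. Ddost, a subunit of the oligosaccharyltransferase, rose from 436 ± 50.5 to 1180.4 ± 48.6 (SD, n = 3), Alg5 rose by 0.50, and Gfpt1, the entry enzyme of hexosamine synthesis, had -0.82. Of 27 genes of translocation and signal peptide removal 3 were lower and 4 higher, including Sec63, a translocon partner of BiP, at 0.73, the BiP exchange factor Sil1 at -0.82 and the signal peptidase subunit Sec11c at -0.84. Neighbours of Sil1 on chromosome 18 had a median of -0.41, and relative to them it was also at -0.41 (limma's adjusted p = 0.00222). Of 28 further degradation genes 6 were lower and 4 higher. Erlec1, a lectin of the same kind as Os9, fell from 1912 ± 101 to 895 ± 91.6 (SD, n = 3), and the ubiquitin receptor Rad23b had -0.54, while the ubiquitin-conjugating enzyme Ube2j1 rose by 0.61.

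**Figure D4:**
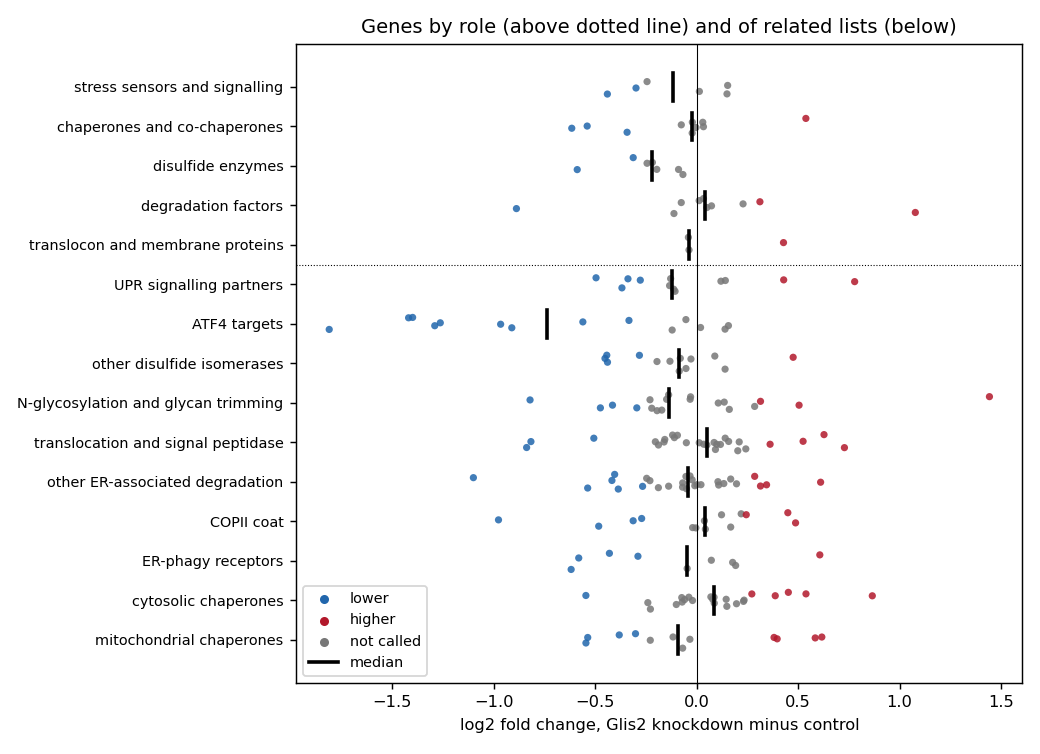
Log2 fold change (knockdown minus control, horizontal axis) of every measured gene of the 5 ER roles and of 10 related lists. Points are genes, coloured by call, and vertical bars are medians. The ATF4 targets have a median of -0.74, the disulfide enzymes one of -0.22, and the other roles lie between -0.12 and 0.04.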

How the data were processed

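RNA of 6 samples was hybridised with Cy3 label to an Illumina mouse bead array, per the labels. The deposited file gives a linear intensity for each probe; the sources used here do not give its normalization, software or build. The deposited intensity values run from 85.4 to 52227, and log2 medians of the arrays differ by at most 0.00029, so no further normalization was applied. Values were floored at 16 (0 altered) and log2 transformed. The platform annotation named 1 gene for 34885 of 45281 probes, several for 18 and none for 10378, and RefSeq (GRCm38.p6) supplied names, synonyms, chromosomes, gene order and promoters. The brightest probe represented a gene.

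Knockdown and control were compared by limma 3.58.1 in R 4.3.3 (lmFit, eBayes, Benjamini-Hochberg over 19057 genes at 0.05). The background limit is the most frequent intensity, 113, plus 3 SD estimated from lower values. On simulated data for this comparison with 19057 genes, changes of 0.25, 0.5, 1 and 2 (log2, 50 genes each) were recovered in 30%, 96%, 100% and 100% of cases. The changed genes were drawn from those above background and were far fewer than the 4291 called in the data. These rates therefore do not cover genes at background and may differ from those of the real comparison. The number of arrays limits the precision. Genes in the list and the related lists were chosen with earlier results of these data known. Named genes were all list members, up to 3 called genes of each related list by smallest p, Atf4, Ddit3 and Glis2. Alternatives covered background, normalization, floor, filters, probe choice, variance model, neighbouring genes, a replicate block and leaving out each array.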

Additional observations from a re-analysis of the deposited data

How the results depend on the processing

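Limma called 4291 genes, of which 8 ER genes were lower and 4 higher. With background subtracted these counts were 2643, 5 and 3, and with unmoderated variances 2174, 4 and 1. With the second brightest probe 4 ER genes were lower and 5 higher. The cause of these shifts was not tested. Leaving out 1 array gave 3754 to 3984 genes, 6 to 10 lower and 3 to 5 higher ER genes. Herpud1, Dnajb9, Pdia3 and Selenos kept their calls under all 20 alternatives, and Ero1b and Ppp1r15b lost theirs in 9 each. With the replicate number as a block 4130 genes were called, 7 ER genes lower and 4 higher; same-numbered arrays did not deviate together (correlations of -0.091, -0.038 and -0.037), and the block changed no call of an ER gene other than Ppp1r15b. Signs turned on the second brightest probe for Ern1 (0.29), Dnajc3 (0.028), Creb3 (-0.0076), Gfpt1 (0.072) and Ccpg1 (0.046), where the cause was not tested, and relative to neighbours for Derl3 (-0.36), a probe not above background from which the neighbours' shift was subtracted. The number of arrays and background in dim probes limit what could be detected.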

Other observations

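Chaperones of other compartments and the steps after folding also changed in both directions. Of 23 cytosolic chaperones 5 were higher and 1 lower, with a median log2 fold change of 0.09. Of those above background 27.3% were called, against 43.2% of all genes above background. With background subtracted 3 of the 23 were higher and 1 lower, and with unmoderated variances 2 were higher. Hsph1, an exchange factor of cytosolic HSP70, rose from 1879 ± 153 to 3442 ± 510.1 and Ahsa1, an activator of HSP90, from 1393 ± 86.0 to 2021 ± 77.1 (SD, n = 3), while the J-domain protein Dnaja2 had -0.55. Of 12 mitochondrial chaperones and proteases, all above background, 4 were higher and 4 lower (66.7% called). Grpel1, the exchange factor of mitochondrial HSP70, rose by 0.58, whereas that HSP70 itself, Hspa9, went from 27234 ± 774 to 18662 ± 509 (SD, n = 3) among neighbours on chromosome 18 with a median of -0.40, relative to which it was at -0.14 and not called (limma's adjusted p = 0.215). The protease Yme1l1 had -0.54.

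Of 14 genes of the COPII coat, which carries folded proteins out of the ER, and its cargo receptors, 4 were lower and 3 higher. Of those above background 53.8% were called, against 43.2% of all genes above background. The cargo receptor Lman1 fell from 1976 ± 269 to 1001 ± 93.4 (SD, n = 3), Sec23a had -0.48 and the GTPase Sar1a 0.45. Of 9 genes of ER-phagy, the delivery of ER to lysosomes, 4 were lower and 1 higher (62.5% of those above background). Ccpg1 was at -0.62, Cdk5rap3 at -0.58 and Atl3 at 0.61. Neighbours of Atl3 on chromosome 19 had a median of 0.30, relative to which it was at 0.23 and not called (limma's adjusted p = 0.0584). Sar1a lost its call with background subtracted (limma's adjusted p = 0.0526).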
